A study of Homo sapiens with 6 samples.

Results

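The 6 genes described here are the kallikrein genes at the KLK1 end of the kallikrein cluster on chromosome 19: KLK1, KLK15, KLK3, KLK2, the pseudogene KLKP1 and KLK4. They were taken by gene symbol from a table of read counts of 35554 genes, and all 6 had a row in it. Transcript levels were compared between LNCaP, an established human prostate cancer cell line that grows in response to androgen, and LNCaP-enzaR, a subline of it resistant to enzalutamide. Enzalutamide is an antiandrogen used against advanced prostate cancer. Each line was represented by 3 libraries from cultures labelled as biological replicates. The parental cells carried no drug selection. LNCaP-enzaR came from LNCaP cells grown under enzalutamide without a break. Per the study's methods, its routine culture still contained the drug, at a reduced dose. The methods name a serum-containing medium for LNCaP and do not list LNCaP-enzaR by name under any medium. Whether enzalutamide was present at RNA extraction is not given in the labels. The study's RNA sequencing methods describe starvation without serum and calcium before treatment. They do not say whether these 6 libraries had that step. LNCaP-enzaR is 1 derived subline, so the p-values below measure the spread between cultures of 1 parental and 1 resistant line.

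Kallikreins are secreted serine proteases. The prostate-expressed members of the cluster are made by luminal epithelial cells under the control of androgen, and several are secreted into seminal fluid, where they form a proteolytic cascade that liquefies the semen clot. KLK3 encodes prostate-specific antigen (PSA), the blood marker used to follow prostate cancer, and its promoter and upstream enhancer are textbook examples of androgen response elements.

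On GRCh38, the build of the deposited table, the genes lay in the order KLK1 (chr19:50819146-50823787, minus strand), KLK15 (chr19:50825289-50837213, minus strand), KLK3 (chr19:50854915-50860764, plus strand), KLK2 (chr19:50861568-50880567, plus strand), KLKP1 (chr19:50882096-50896398, minus strand) and KLK4 (chr19:50906352-50910738, minus strand). KLK3 and KLK2 thus stand side by side on the strand opposite to that of the other 4. The promoter sequences of KLK3, KLK2 and KLK4 are shown because these 3 genes carried nearly all kallikrein reads and differed in how far they changed. They are the 250 bases before the start site in RefSeq (GRCh38.p14), read 5′ to 3′ on the gene's own strand, and capitals mark a match to the androgen response element core GNACANNNNGTNC.
KLK3: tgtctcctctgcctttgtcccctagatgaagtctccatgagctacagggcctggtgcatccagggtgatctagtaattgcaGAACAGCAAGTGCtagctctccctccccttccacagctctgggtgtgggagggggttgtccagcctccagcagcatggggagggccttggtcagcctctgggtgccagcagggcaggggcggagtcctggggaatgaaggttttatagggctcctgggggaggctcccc
KLK2: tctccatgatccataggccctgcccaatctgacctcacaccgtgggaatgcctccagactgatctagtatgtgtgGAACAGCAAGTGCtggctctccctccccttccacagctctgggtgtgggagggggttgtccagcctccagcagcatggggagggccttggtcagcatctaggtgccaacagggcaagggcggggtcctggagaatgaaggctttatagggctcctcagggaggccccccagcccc
KLK4: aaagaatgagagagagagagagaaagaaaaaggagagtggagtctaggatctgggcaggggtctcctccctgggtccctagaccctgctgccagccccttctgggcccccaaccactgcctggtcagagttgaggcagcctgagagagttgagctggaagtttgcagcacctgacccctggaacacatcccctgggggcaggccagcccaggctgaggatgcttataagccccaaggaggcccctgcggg

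The KLK3 window was chr19:50854665-50854914 and the KLK2 window chr19:50873189-50873438, ahead of a KLK2 start site that lies inside the deposited KLK2 gene. The KLK4 window shown was chr19:50911396-50911645, before a start site at 50911395 that lies outside the deposited KLK4 gene. The other KLK4 start site, 50910738, is the upper end of that gene, and its window is not shown. RefSeq windows were found for 4 of the 6 genes, KLK15, KLK3, KLK2 and KLK4, with 6 windows in all, since KLK15 and KLK4 each had an additional start site. KLK3 and KLK2 held the same 13 bases at the core, GAACAGCAAGTGC, at −169 to −157 from the KLK3 start and at −175 to −163 from the KLK2 start. In KLK3 the core overlapped a match to the half-site AGAACA at −170 to −165. Neither motif, nor the stricter core GNACANNNTGTNC, had a match in the 250 bases before any KLK4 or KLK15 start site, which says only that these letters are not in these windows. For comparison, among the 27305 genes with a window of 300 bases around the start, both strands searched, 17.5% held the half-site, 2.65% the core GNACANNNNGTNC and 0.48% the stricter core. Aligned end to end, the KLK2 and KLK3 windows were identical at 86.1% of aligned columns (205 of 238), while the other pairs of windows of different genes ranged from 53.3% to 63.8%.

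The libraries held 77759122 to 98616465 counts. Libraries of the same line correlated at r = 0.9968 to 0.9981 on the log scale across genes and those of different lines at 0.9501 to 0.9547, and no library was a copy of another. Mitochondrial transcripts took 6.719% to 7.061% of the parental counts and 14.75% to 15.53% of the LNCaP-enzaR counts, and their part in the results below was not tested, although leaving these genes out of the scaling changed no kallikrein call. Both lines expressed luminal epithelial markers. The summed level of 6 such genes was 2616.67 to 2630.03 CPM (counts scaled to 1e+06 per library) in parental LNCaP and 2721.87 to 2993.3 CPM in LNCaP-enzaR, with KRT8 higher, FOLH1 and HOXB13 lower and KRT18, EPCAM and CDH1 not past the limits. The FOLH1 call was lost without resistant library 1 (log2 fold change −0.57). Markers of other cell types were scarce. Basal markers summed to at most 1.71 CPM and neuroendocrine markers to at most 3.23 CPM in any library, endothelial markers to at most 6.10 CPM, and no blood marker exceeded 13 counts. The largest sum was that of fibroblast and smooth muscle genes, at 14.1 to 17.5 CPM over all 6 libraries, in which ACTA2 (2.00 ± 0.397 to 8.71 ± 0.255 CPM) and PDGFRB (0.641 ± 0.038 to 1.73 ± 0.295) were higher and COL1A1 (13.4 ± 1.496 to 4.29 ± 0.436) lower in LNCaP-enzaR. Their part in the results was not tested.

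Levels are given as CPM after scaling by the trimmed mean of M-values (TMM). Of the 6 genes, 5 passed the filter on low counts and were tested, and KLK1 did not. Genes were called at a Benjamini-Hochberg adjusted p of at most 0.05 and a change of at least 1.5-fold in edgeR's quasi-likelihood test over 19711 genes. By this rule 3 of the 5 tested kallikreins, KLK3, KLK2 and KLK15, were lower in LNCaP-enzaR, and none was higher. Of all genes tested, 19.5% were lower and 23.3% were higher by the same rule, 42.7% in all. The same 3 kallikreins passed at a limit of 2-fold, which 28.2% of all genes tested passed in either direction. The median log2 fold change was −1.09 over the 5 kallikreins and 0.01 over all genes tested. Because RNA was taken from whole cultures, fewer expressing cells and less RNA per cell cannot be told apart.

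**Figure D1:**
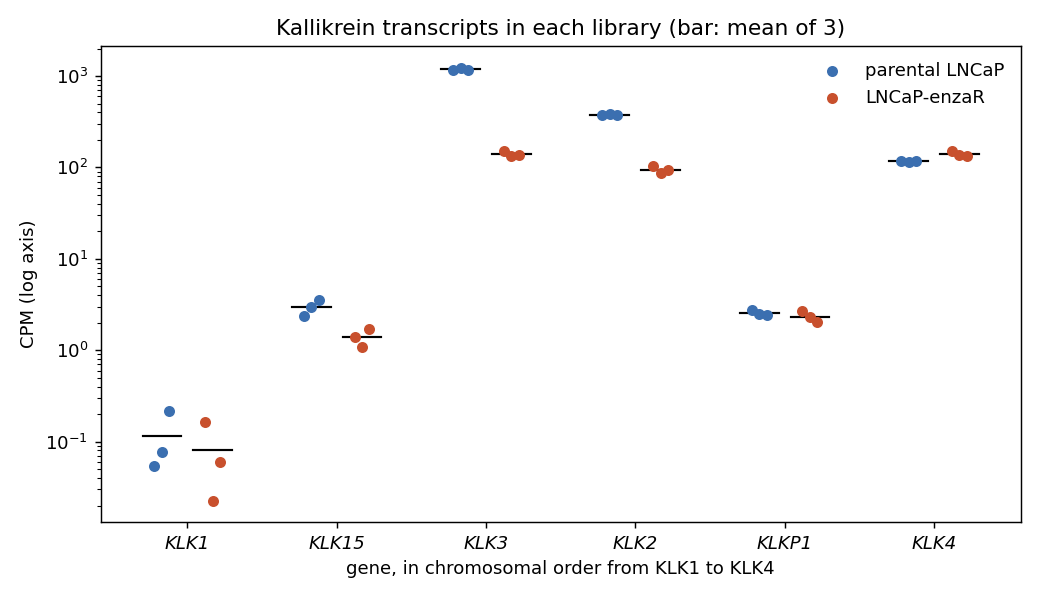
Level of each kallikrein gene (CPM, log axis) in each library, with genes in chromosomal order, 3 points per line and bars at the mean of 3. KLK3, KLK2 and KLK15 sit lower in all 3 LNCaP-enzaR libraries, KLK4 sits slightly higher and the points of KLKP1 and KLK1 overlap.

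KLK3, the gene of PSA, a chymotrypsin-like protease that cleaves the semenogelins of the semen clot, showed the largest change of the 5. It was measured at 1160.51, 1237.82 and 1170.32 CPM in parental libraries 1 to 3 and at 151.326, 134.14 and 136.736 CPM in LNCaP-enzaR libraries 1 to 3. All resistant libraries lay far below all parental ones. Mean levels were 1189.55 ± 42.1 and 140.734 ± 9.26 CPM (SD, n = 3 each), an 8.45-fold decrease (log2 fold change −3.08, SE 0.063, 95% confidence interval −3.21 to −2.94, edgeR adjusted p = 4.38e-14). Between 11847 and 112597 reads were counted for KLK3 in each library, so counting error was small beside the spread between cultures. Only 2.08% of all genes tested (410 genes) had a log2 fold change at or below that of KLK3, and by level KLK3 ranked 64 among the 35554 genes in parental LNCaP and 1314 in LNCaP-enzaR.

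KLK2, the trypsin-like protease nearest to KLK3 in sequence, which can activate the PSA proenzyme, also fell. Its level was 378.503, 386.263 and 371.581 CPM in the parental libraries and 103.708, 86.6189 and 94.4897 CPM in the resistant libraries. The groups were again far apart. The means of 378.782 ± 7.34 and 94.9389 ± 8.55 CPM (SD, n = 3 each) differed 3.99-fold (log2 fold change −1.996, SE 0.066, 95% confidence interval −2.14 to −1.85, edgeR adjusted p = 4.84e-12). KLK2 ranked 350 by level in parental LNCaP and 2165 in LNCaP-enzaR, and 4.47% of all genes tested fell as far or farther. Because the KLK2 and KLK3 transcripts are related, shared sequence was searched for. None of the 150-base stretches of either gene's transcripts, the read length of the libraries, occurred in a transcript of another gene, and at 50 bases 0.452% of the KLK2 stretches (31 of 6861) and 0.217% of the KLK3 stretches (11 of 5074) did.

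KLK15, a trypsin-like family member also able to activate the PSA proenzyme in vitro, was expressed at a far lower level. It had 219, 271 and 282 counts in the parental libraries and 121, 95 and 168 counts in the resistant ones, or 2.37, 2.98 and 3.59 CPM against 1.40, 1.08 and 1.69 CPM. The lowest parental library stayed above the highest resistant library. KLK15 was 2.13-fold lower in LNCaP-enzaR (log2 fold change −1.09, SE 0.200, 95% confidence interval −1.52 to −0.66, edgeR adjusted p = 0.000232), with means of 2.98 ± 0.612 and 1.39 ± 0.309 CPM (SD, n = 3 each). As for the other 5 genes, none of its exons overlapped exons of another gene, apart from an older entry of KLKP1 itself.

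KLK4, or prostase, a trypsin-like protease of the prostate that is also required for enamel maturation in teeth, did not fall. It was measured at 117.755, 115.221 and 117.436 CPM in parental LNCaP and at 151.825, 137.231 and 134.509 CPM in LNCaP-enzaR, so that all 3 resistant libraries lay above the parental ones. The difference was 1.21-fold (log2 fold change 0.27, SE 0.059, 95% confidence interval 0.15 to 0.40, edgeR adjusted p = 0.000862), below the 1.5-fold limit, and the means were 116.804 ± 1.38 and 141.188 ± 9.31 CPM (SD, n = 3 each). Of the 19711 genes tested, 66.3% had an adjusted p of at most 0.05 at any fold, so a small change of this kind was common. The 5 tested kallikreins included 4 with no overlap between the lines, and 70.6% of all genes tested had none. Resistant library 1 held the highest KLK3, KLK2 and KLK4 levels of its group, and without it the KLK4 log2 fold change was 0.23 (edgeR adjusted p = 1.37e-05).

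KLKP1 is a transcribed pseudogene between KLK2 and KLK4. It had 256, 228 and 190 counts in the parental libraries and 229, 205 and 201 counts in the resistant ones. In CPM these were 2.77, 2.51 and 2.42 against 2.65, 2.32 and 2.03, and the groups overlapped. The log2 fold change of −0.14 (SE 0.1503, 95% confidence interval −0.46 to 0.18) did not pass the test (edgeR adjusted p = 0.437), and its interval reached neither the KLK15 nor the KLK2 estimate. KLK1, tissue kallikrein, which releases kinins from kininogen and is best known from kidney, pancreas and salivary gland, was near the limit of detection. Only 5, 7 and 17 parental and 14, 2 and 6 resistant counts were recorded, 29 against 22 in all. The exact Poisson 95% intervals of its pooled level, 0.0741 to 0.159 CPM and 0.0503 to 0.122 CPM, cover counting error only and overlapped, so a difference was not detectable at this depth.

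Summed over the 6 genes, kallikrein transcripts reached 1661.95, 1744.87 and 1665.57 CPM in parental LNCaP and 411.077, 361.41 and 369.514 CPM in LNCaP-enzaR. The sum was thus 4.44-fold lower in the resistant line, at 380.667 ± 26.6 against 1690.8 ± 46.9 CPM (SD, n = 3 each), and made up 0.0376% against 0.171% of all counts. A two-sided exact permutation test gave p = 0.1, the smallest that 3 against 3 libraries allow.

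The genes differed from each other in how far they changed. The ratio of KLK4 to KLK3 counts, which needs no scaling between libraries, was 0.101, 0.0931 and 0.1003 in parental LNCaP and 1.003, 1.02 and 0.984 in LNCaP-enzaR. It was 10.2-fold higher in LNCaP-enzaR, by 3.35 on the log2 scale, with no overlap between the lines. The KLK2 to KLK3 ratio went from 0.319 ± 0.00711 to 0.674 ± 0.0247 (SD, n = 3 each), a 2.12-fold difference. Relative to KLK3, KLK15 was 3.94-fold and KLKP1 7.67-fold higher in the resistant line. Each of the 4 ratios reached the smallest p of the two-sided exact permutation test, 0.1, which stayed at 0.1 after Benjamini-Hochberg adjustment over the 4, so this test cannot pass 0.05 for them with 3 libraries a line.

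To compare levels between genes, CPM were divided by the exon length of each gene in kb (GENCODE v44). Per kb, the parental order was KLK3 at 256 ± 9.07, KLK2 at 59.6 ± 1.16, KLK4 at 58.3 ± 0.689, KLKP1 at 1.34 ± 0.094, KLK15 at 0.956 ± 0.196 and KLK1 at 0.0487 ± 0.037 CPM per kb (SD, n = 3 each). The parental libraries overlapped for the neighbours KLK2 (58.5 to 60.8) and KLK4 (57.5 to 58.8), which did not differ beyond their spread, and for no other neighbouring pair. In LNCaP-enzaR the order was KLK4 at 70.5 ± 4.65, KLK3 at 30.3 ± 2.00, KLK2 at 14.9 ± 1.347, KLKP1 at 1.22 ± 0.164, KLK15 at 0.446 ± 0.099 and KLK1 at 0.0344 ± 0.030 CPM per kb, with no overlap between neighbours. KLK4 therefore held the first place per kb in the resistant line and KLK3 in the parental line. These levels depend on the annotated exon length, which adds up all isoforms and is longest for KLK2 (6351 bases) and shortest for KLKP1 (1912) and KLK4 (2004).

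**Figure D2:**
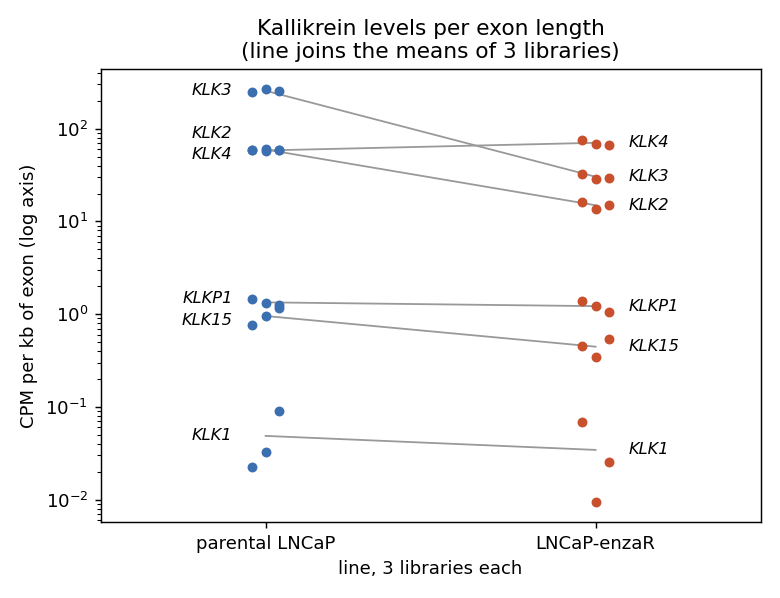
Level per kb of exon (CPM per kb, log axis) of the 6 kallikrein genes, with 3 libraries per line as points and a line joining the 2 means of each gene. KLK3 falls from 256 to 30.3 and passes below KLK4, which goes from 58.3 to 70.5.

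As a share of the kallikrein counts, KLK3 went from 70.3% ± 0.560 to 37.0% ± 0.154, KLK4 from 6.91% ± 0.269 to 37.1% ± 0.798 and KLK2 from 22.4% ± 0.330 to 24.9% ± 0.845 (SD, n = 3 each). In every library of the resistant line the KLK3 share was lower, and the KLK4 share higher, than in any parental library. KLK15 went from 0.176% to 0.366% and KLKP1 from 0.152% to 0.612% of the kallikrein counts. Per kb of exon, KLK3 went from 68.1% to 25.8% and KLK4 from 15.5% to 60.0%. The KLK2 share changed its direction with this choice, being higher in the resistant line by counts and lower per kb, at 12.7% against 15.8%.

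**Figure D3:**
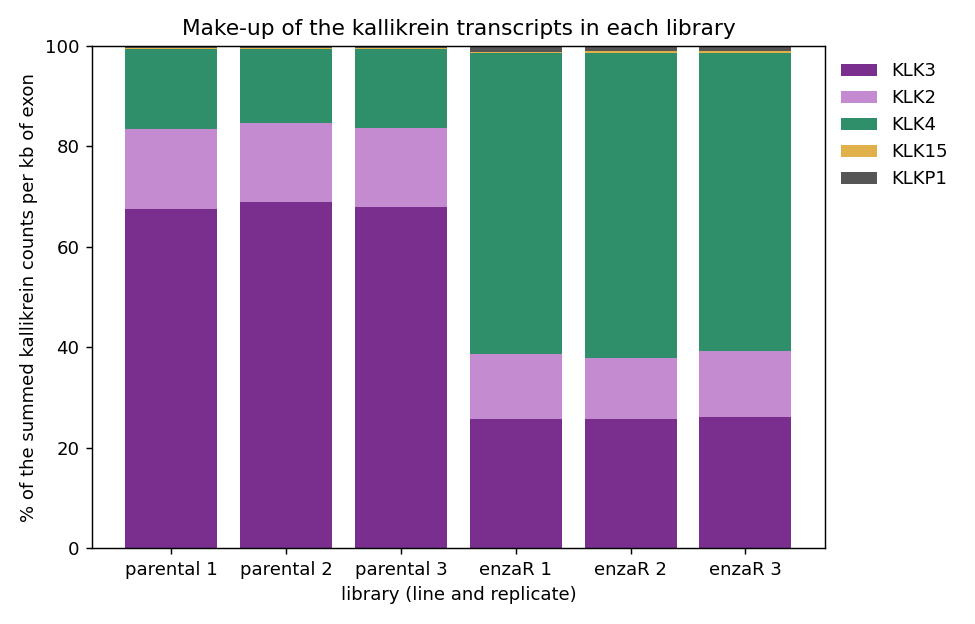
Share of each gene in the summed kallikrein counts per kb of exon (%, stacked bars adding up to 100) in each of the 6 libraries, with KLK1 counted but too small to be drawn. KLK3 holds 67.5% to 68.9% in the parental libraries, and KLK4 holds 59.3% to 60.8% in the LNCaP-enzaR libraries.

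Along the chromosome, KLK15, KLK3 and KLK2, which fell, follow one another, and KLKP1 and KLK4, which did not pass the limit, lie beyond KLK2. The start sites of KLKP1 and KLK4, at the upper ends of their deposited coordinates, lie 41483 and 55823 bases from that of KLK3. One tested gene other than a kallikrein lay within the span from KLK1 to KLK4, the long non-coding RNA gene AC011523.2 (ENSG00000267968.1, chr19:50830530-50851089, plus strand), which runs opposite to KLK15 without sharing exons with it and ends 3826 bases before KLK3. It was named after its values were seen. With 23, 24 and 33 counts in parental LNCaP and 5, 8 and 2 counts in LNCaP-enzaR it was lower as well (log2 fold change −2.45, SE 0.590, edgeR adjusted p = 0.00208). It passed the filter only through the parental libraries, where it was high, so this p is no support of its own. Whether counting used strand is not given in the sources used here.

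The remaining kallikreins of the cluster, KLK5 to KLK14, are better known from skin and other tissues. Of these 10 genes, 7 were analysed here, and none exceeded 24 counts in a library. KLK6 was at 0 in all 3 parental libraries and at 12, 16 and 23 counts in the resistant ones, at least 5.33-fold higher against a floor of 3 counts per parental library (edgeR adjusted p = 0.000195). It passed the filter only through the resistant libraries, where it was high, so this p is no support of its own. KLK14, with 12, 18 and 5 against 11, 24 and 14 counts, did not pass (edgeR adjusted p = 0.515). The other 5 did not pass the filter. Among them KLK5, named after its values were seen, showed 0 counts in every parental library and 14, 24 and 10 in the resistant ones, at least 5.16-fold higher by the same floor. Together these genes made up at most 0.906 CPM in any library, against 361.41 CPM or more for the 6 genes at the KLK1 end.

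Within 250 kb outside the whole cluster, 13 genes were tested, of which 7 were higher, 1 was lower and 5 did not pass, with a median log2 fold change of 0.93. Of all genes tested, 19.5% were lower and 23.3% were higher. Whether the 13 flanking genes differ from these shares was not tested. SYT3, SHANK1, SNORD88A and IGLON5 passed the filter only through the resistant libraries, and CTD-2568A17.1 only through the parental ones. They were named after their values were seen. The upward count and the median, which was the value of IGLON5, follow that selection and are no support of their own. The gene that fell was C19orf48, from 482.853 ± 3.45 to 285.667 ± 31.1 CPM (log2 fold change −0.76, edgeR adjusted p = 2.06e-07). CLEC11A, a secreted growth factor of bone and blood cells, was higher at 36.3 ± 5.09 against 20.6 ± 2.01 CPM (log2 fold change 0.81, edgeR adjusted p = 4.44e-06), and so was VSIG10L at 10.9 ± 0.474 against 5.33 ± 0.324 CPM (log2 fold change 1.03, edgeR adjusted p = 1.86e-07).

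**Figure D4:**
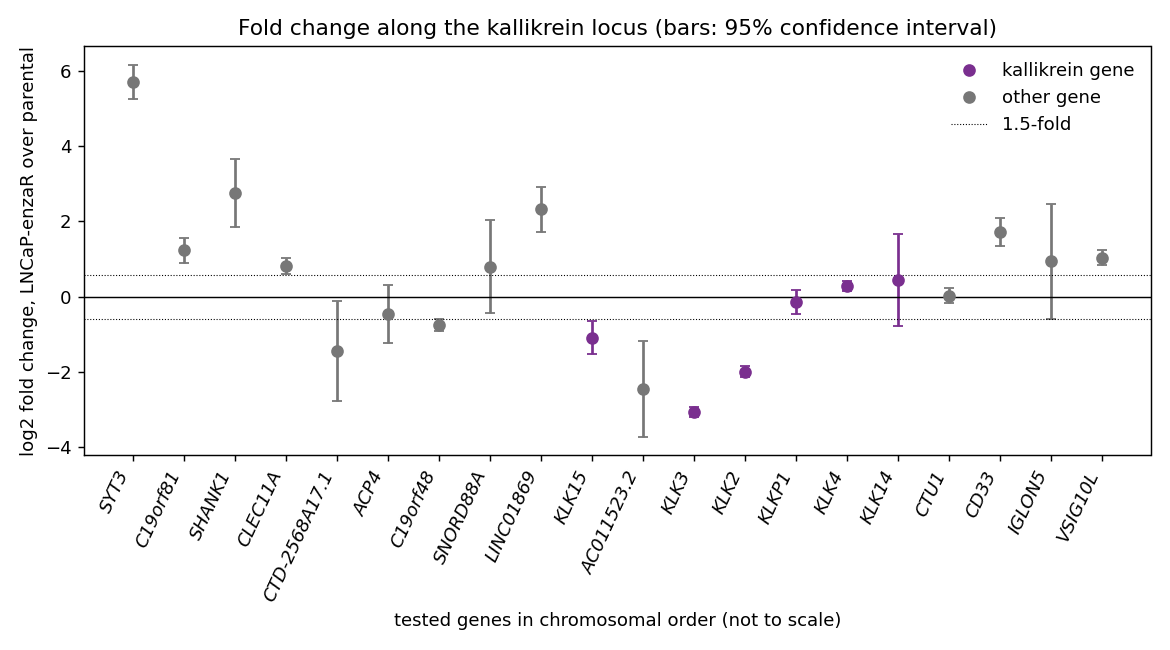
Log2 fold change (LNCaP-enzaR over parental) with its 95% confidence interval for the tested genes of the locus in chromosomal order, not to scale, with kallikreins in purple and dotted lines at 1.5-fold; KLK6, at 0 in every parental library, is left out. KLK15, AC011523.2, KLK3 and KLK2 lie in a run below the lower dotted line, and KLKP1 and KLK4 lie between the lines.

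The kallikreins were set beside 27 genes that androgen is known to induce in prostate cells, listed with earlier results of these data known. Of 26 tested, 20 were lower and 2 higher in LNCaP-enzaR, beside 19.5% and 23.3% of all genes tested. The other 4 did not pass, and the median log2 fold change of the 26 was −1.32. Only 3 of the 26 had a lower log2 fold change than KLK3. The 2 with the smallest p were ADAM7, a sperm-maturation membrane protein of the epididymis, which went from 64.8 ± 2.23 to 0.0651 ± 0.018 CPM (edgeR adjusted p = 1.30e-15), and SLC45A3, prostein, which went from 372 ± 18.5 to 14.0 ± 0.523 CPM (log2 fold change −4.73, edgeR adjusted p = 1.85e-15). The third was the potassium channel gene KCNN2 (log2 fold change −3.90). ADAM7 and STEAP4, which is among the 20 lower genes, passed the filter only through the parental libraries, where they were higher. Their p-values and calls are no support of their own. FKBP5, a co-chaperone of steroid receptors, fell by 2.25 on the log2 scale, and KLK2 had a log2 fold change of −1.996. KLK4 stood among the genes at the other end, beside the protease gene TMPRSS2 (log2 fold change 0.16) and the calcium channel gene TRPV6 (0.33), while SPOCK1 (1.57) and NDRG1 (1.21) were past the limit upwards. CAMKK2 (−0.35) and HERC3 (−0.45) were the other two that did not pass, and HERC3 passed without parental library 2 (−0.62). FKBP5, KCNN2, STEAP4 and these 6 genes were named after their values were seen.

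**Figure D5:**
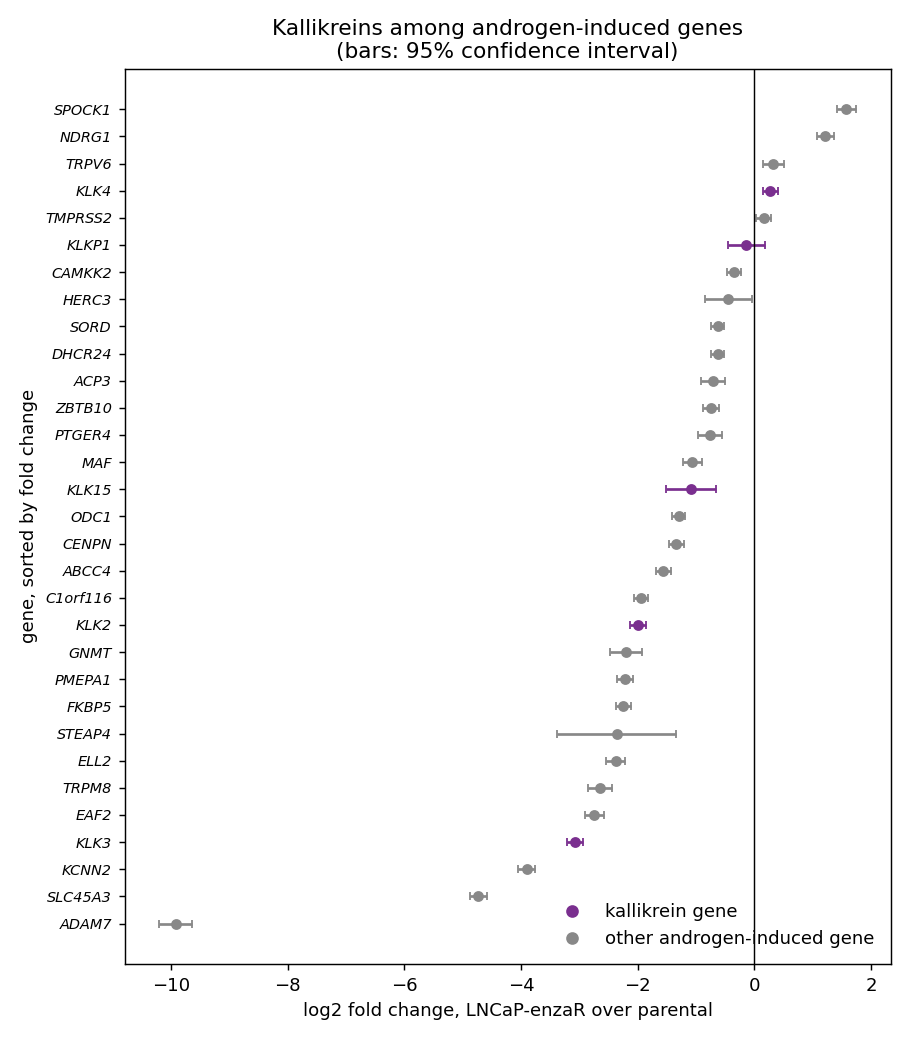
Log2 fold change (LNCaP-enzaR over parental) with its 95% confidence interval of the 5 tested kallikreins (purple) and 26 other androgen-induced genes (grey), sorted. KLK3 at −3.08 stands below all but 3 genes, KLK2 at −1.996 and KLK15 at −1.09 in the middle, and KLKP1 and KLK4 near 0.

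Of 14 transcription factors and cofactors that act at kallikrein enhancers, 2 were higher, 5 lower and 7 did not pass, a share called near the 42.7% of all genes tested. FOXA1, the pioneer factor that opens prostate enhancers, stood at 439 ± 1.70 and 424 ± 8.28 CPM (SD, n = 3 each; edgeR adjusted p = 0.378), and GATA2 at 462 ± 24.3 and 479 ± 41.2 CPM (edgeR adjusted p = 0.513). SPDEF, an epithelial ETS factor that can activate the KLK3 promoter, fell from 129 ± 5.35 to 38.4 ± 2.37 CPM (log2 fold change −1.75, edgeR adjusted p = 1.36e-11). HOXB13, a homeobox factor of the prostate lineage, fell from 539 ± 3.22 to 302 ± 16.9 CPM (log2 fold change −0.84, edgeR adjusted p = 5.62e-09). The corepressor gene NCOR1, the demethylase gene KDM1A and the coactivator gene NCOA1 were the others that fell (log2 fold changes −0.89, −0.93 and −0.64), and the coactivator genes NCOA2 and NCOA3 were higher (0.92 and 0.60). The call of NCOA3 was lost without parental library 2 (0.58) or resistant library 2 (0.52). NR3C1, the glucocorticoid receptor gene, whose product binds the same element, was at 0.251 ± 0.059 and 0.388 ± 0.167 CPM (edgeR adjusted p = 0.203).

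The 5 genes outside the family nearest to KLK3 over the 6 libraries were PASK (distance 0.153), RTL5 (0.251), KCNK1 (0.253), SLC43A1 (0.261) and CAB39L (0.282). Distance was Euclidean, between log2 levels after adding 0.5 CPM, relative to the parental mean. PASK, a nutrient-sensing kinase, went from 145 ± 1.96 to 17.7 ± 1.19 CPM. All 5 were lower in LNCaP-enzaR, at log2 fold changes of −3.68 (RTL5) to −3.04 (PASK), against −3.08 for KLK3. The distances mostly measure the difference between the lines, because libraries within a line varied little. The added 0.5 CPM shrinks the change of low genes in the distance. RTL5, at 0.861 ± 0.138 CPM in LNCaP-enzaR, was 12.8-fold lower there and KLK3 8.45-fold, so its distance understates that gap.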

How the data were processed

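RNA from 3 parental LNCaP and 3 LNCaP-enzaR cultures was sequenced, and the authors deposited raw read counts per gene on GRCh38.p13 with GENCODE annotation. Per the labels, cutadapt, STAR and featureCounts were used; strand and multi-mapping settings are not given in the sources used here. Samples were grouped by their titles. Genes were filtered with filterByExpr, leaving 19711 of 35554 (99.962% of counts), scaled by TMM and tested with edgeR 4.0.16 (glmQLFit, robust) in R 4.3.3 with Benjamini-Hochberg adjustment over all genes tested. The filter asked for counts in as many libraries as a line has. KLK6, KLK14, SEMG1, A2M, SYT3, SHANK1, SNORD88A and IGLON5 passed it only through the resistant libraries. AC011523.2, ADAM7, STEAP4, BDKRB1 and CTD-2568A17.1 passed it only through the parental ones. Their p-values follow that selection. Depth was 77759122 to 98616465 counts per library, so 3 counts equalled 0.0302 to 0.0382 CPM. Sums, shares and ratios were compared by two-sided exact permutation tests. The edgeR fit was also run on simulated data in which few genes changed. Many changed here, so that run does not test the scaling for these libraries.

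Exon lengths and strands came from GENCODE v44, in which KLKP1 was matched by coordinates, and promoters from RefSeq, searched and aligned with Biopython 1.88. Replicate numbers came from the titles. Deviations of same-numbered libraries correlated at −0.211, 0.00849 and −0.116, so no pairing by number was seen. With 3 libraries a line this check cannot exclude pairing. Alternatives were DESeq2 1.42.0, other scalings and filters, a replicate block and leaving out each library. The genes described and the gene lists were chosen with earlier results of these data known. Named genes were all kallikreins passing the filter, flanking genes past the limits whose mean was 5 CPM or more, and the 2 androgen-induced genes with the smallest p. Enhancer factors that were fixed or past the limits were named as well. So were the substrates, inhibitors and receptors passing the filter and the 5 genes nearest to KLK3. Others, apart from cell type markers, are marked. Listed genes that were left out are not reported here.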

Additional observations from a re-analysis of the deposited data

How the results depend on the processing

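KLK3, KLK2, KLK4, KLK15 and KLKP1 kept their direction and call under every change of tool, scaling, filter, block or library that gave a value. With no fold limit, KLK4 passed too, making 4 kallikreins instead of 3. Log2 fold changes ranged from −3.13 to −2.98 for KLK3, −2.06 to −1.90 for KLK2, −1.26 to −0.94 for KLK15, 0.23 to 0.37 for KLK4 and −0.23 to −0.04 for KLKP1. With protein-coding genes only, KLKP1 gave no value. Upper-quartile scaling moved the median of all genes by 0.10 (log2), so that 60.9% instead of 54.5% of calls were higher, and KLK4 stood at 0.37 under it. The replicate block changed no kallikrein call (KLK3 −3.08, KLK2 −1.99988, KLK15 −1.10, KLK4 0.27, KLKP1 −0.14) and left 8212 genes past the limits against 8425. Summing KLK4 with KLKP1 was not run because their exons do not overlap.

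Lists of few or low genes moved. Calls among KLK5 to KLK14 went from 1 to 2 with no filter, 0 when every library had to hold 10 counts or more, and 1 to 2 on leaving out a library. The call between the kallikreins went from 1 to 0 with that count minimum or with protein-coding genes only, where AC011523.2 is not tested. Inhibitor calls went from 1 to 2 with no filter, 0 with the count minimum and 1 to 3 on leaving out a library. Receptor calls went from 1 to 2 under DESeq2, RLE size factors, upper-quartile scaling, no mitochondrial genes, the count minimum or protein-coding genes only, and 1 to 3 on leaving out a library. Shares per kb of exon, parental then resistant, were 68.1% and 25.8% for KLK3, 15.8% and 12.7% for KLK2, 15.5% and 60.0% for KLK4, and 0.356% and 1.04% for KLKP1, with 0.254% for parental KLK15. Of the other named genes, 43 were followed and gave 638 values, of which 616 had the same direction and call. Signs turned for FOXA1 (0.0502) and IGFBP3 (0.0785) under upper-quartile scaling, for GATA2 without resistant library 1 (−0.0129) and for IGFBP3 on leaving out a library (−0.0533 to 0.0258), all for genes not past the limits. The calls of FOLH1 and NCOA1 were lost under upper-quartile scaling, and that of NCOA3 with library totals, while KRT18 passed under upper-quartile scaling (0.60). The causes were not tested. The exact permutation test on 3 against 3 libraries cannot go below p = 0.1, and differences in genes as low as KLK1 cannot be resolved at this depth.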

Other observations

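Transcripts of proteins that the kallikreins act on were measured in the same libraries, from a list made with earlier results of these data known. Of 8 tested substrate genes, 2 were lower, 2 higher and 4 did not pass. Of all genes tested, 42.7% were called in either direction. FN1, the matrix protein fibronectin, had 337 ± 7.05 CPM in parental and 31.0 ± 1.01 CPM in resistant libraries (log2 fold change −3.44, edgeR adjusted p = 7.20e-15), a change of about the size of that of KLK3. LAMA1, a laminin chain, was lower at a low level (log2 fold change −1.57, edgeR adjusted p = 4.60e-05). SEMG1, a semenogelin cleaved by PSA, went the other way, with 9, 4 and 5 parental and 115, 123 and 179 resistant counts (log2 fold change 4.43, edgeR adjusted p = 3.27e-08). It passed the filter only through the resistant libraries, where it was high, so this p is no support of its own. KNG1, kininogen, was higher too (log2 fold change 2.44, edgeR adjusted p = 8.92e-06). IGFBP3, an insulin-like growth factor binding protein, did not pass (566 and 557 CPM, edgeR adjusted p = 0.738). The other semenogelin gene, SEMG2, did not pass either (log2 fold change 0.13, edgeR adjusted p = 0.851). Nor did PTHLH (−0.11, edgeR adjusted p = 0.890) or TGFB2 (−0.49, edgeR adjusted p = 0.588).

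Of the receptors reached by kallikreins or by kinins, BDKRB2, a bradykinin receptor, was higher with 91, 72 and 102 resistant against 22, 20 and 18 parental counts (log2 fold change 2.07, edgeR adjusted p = 1.64e-05). The other kinin receptor gene, BDKRB1, had an estimate in the other direction and did not pass (log2 fold change −1.23, edgeR adjusted p = 0.0689). F2RL1, a protease-activated receptor cleaved by trypsin-like kallikreins, stood at 57.8 ± 1.77 against 38.6 ± 1.16 CPM, with its log2 fold change of 0.58 just under the 1.5-fold limit. It was past that limit without parental library 2 (0.59) or 3 (0.59) and without resistant library 1 (0.59) or 3 (0.61). F2RL1 was also past it under DESeq2 (0.59), RLE size factors (0.59), upper-quartile scaling (0.68) and no mitochondrial genes (0.59). The same held with the count minimum (0.61) and with protein-coding genes only (0.61). F2R, the thrombin receptor, was below the limit (log2 fold change −0.39). Of 11 listed inhibitors 2 were tested. A2M, the broad protease inhibitor that binds PSA, was higher with 39, 41 and 38 against 4, 11 and 0 counts (log2 fold change 2.91, edgeR adjusted p = 0.00111). A2M passed the filter only through the resistant libraries, where it was high, so this p is no support of its own. Without parental library 2 the A2M log2 fold change was 4.15. SERPINB6 stayed below the fold limit at 148 ± 4.02 against 132 ± 1.67 CPM; errors here are SD of 3 libraries.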
